A study of Mus musculus with 2 samples.

Results

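Nuclear genes encode most subunits of the 5 complexes of oxidative phosphorylation, and 79 of them, of the 32285 genes listed in the files, are described here across the cell classes of the mouse hippocampus. They were taken by symbol: 80 symbols matched the Nduf, Sdh, Uqcr, Cox and Atp5 spellings of structural subunits, and 79 had at least 100 unique molecular identifiers (UMIs, each standing for 1 captured RNA molecule) over both libraries. Cox8c fell below that floor. The members comprised 36 genes of complex I, 4 of complex II, 8 of complex III, 14 of complex IV and 17 of complex V. Ndufa4 is counted with complex I by its spelling, although its protein is now placed in complex IV. The spellings leave out Cox4i1, Ndufab1, Cyc1, Atpif1 and Cox7a2l, which are given apart.

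Complexes I to IV pass electrons from NADH and succinate to oxygen. Of these, complexes I, III and IV pump protons across the inner mitochondrial membrane, and complex V, the ATP synthase, uses the gradient to make ATP. Except for complex II, each is assembled from nuclear-encoded subunits and from a few that the mitochondrial genome encodes. Neurons rely on this pathway for the cost of ion pumping, and fast-spiking parvalbumin interneurons are known for a high density of mitochondria.

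Nuclei from frozen hippocampi were sequenced from the 3' end of their RNA in droplets, with 1 library per group, so no test between the groups was possible. The groups were 5XFAD x MR1 KO and 5XFAD, both at 8 months of age, and each library pooled 1 male and 1 female mouse. All of these mice carried the 5XFAD transgenes (driven by the neuronal Thy1 promoter), and the MR1 knockout was meant to remove MR1, which presents microbial metabolites to mucosal-associated invariant T cells. No mice without the transgenes were analysed here.

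Mr1 RNA did not go with the label: over all deposited barcodes, 129 UMIs (1.51 CPM, UMIs per 1000000 in all) were found in the library labelled MR1 knockout and 96 UMIs (0.898 CPM) in the 5XFAD library. A 3' tag can lie outside the deleted part, so this does not check the deletion and the label is used only as a name. The library labelled MR1 knockout held 17128 kept nuclei with 56143519 UMIs, and the 5XFAD library held 12016 kept nuclei with 56260466 UMIs. The median nucleus had 2519 UMIs in the library labelled MR1 knockout and 3705.5 in the 5XFAD library, with 1.20% and 1.81% of UMIs from mitochondrially encoded genes. A limit of 5% mitochondrial UMIs had removed 8.92% and 35.8% of their barcodes. Some clusters were nearly in 1 library alone: an unnamed cluster 4 held 1772 nuclei in the library labelled MR1 knockout and 18 in the 5XFAD library, and nuclei like striatal medium spiny neurons numbered 4 and 1131. By sex call, cluster 4 had 1672 female and 6 male nuclei in the library labelled MR1 knockout. The striatal-like nuclei of the 5XFAD library had 4 female and 693 male, so each group came mostly from 1 mouse where sex was called. The libraries shared 182 barcodes, of which 60 were kept in both. Classes were rebuilt from marker genes, so each name below means nuclei that resemble that type. Intervals are 95% and cover counting error only, and molecules of 1 library are not independent animals.

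Member RNA was more even across cell classes per nucleus than as a share of RNA. In the library labelled MR1 knockout, the summed members ranged over the 11 compared classes (those with at least 100 nuclei in each library) from 25.9 UMIs per nucleus in oligodendrocytes to 41.4 in Pvalb interneurons. In the 5XFAD library the same classes stood at the ends, with 32.6 and 52.3 UMIs per nucleus. The spread was 1.60-fold and 1.61-fold, while the UMIs of all genes per nucleus spread 4.89-fold and 5.04-fold. As a share of all UMIs the order was nearly the opposite. Oligodendrocytes gave 2.46% in the library labelled MR1 knockout and 2.18% in the 5XFAD library, and microglia gave 2.44% and 2.32%. CA2/CA3 pyramidal neurons had the lowest share, 0.687% and 0.681%.

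The order of the classes by share was much alike in both libraries. In the library labelled MR1 knockout the counting intervals of oligodendrocytes (2.43% to 2.50%) and microglia (2.41% to 2.48%) overlapped, as did those of oligodendrocyte precursors (1.75% to 1.81%) and astrocytes (1.69% to 1.77%). Dentate granule neurons followed at 1.27% in that library and 1.01% in the 5XFAD library. The interneuron classes, named by Adarb2, Sst and Pvalb, lay between 0.885% and 0.929% in the library labelled MR1 knockout and between 0.910% and 0.994% in the 5XFAD library. Pvalb interneurons had the most member RNA per nucleus of the compared classes in both libraries, and 50 and 35 of the 79 members had their highest UMIs per nucleus there. The share of all genes with their highest level there is not given, so the count cannot be read as particular to the members. Pvalb nuclei held 4675 and 5266 UMIs of all genes on average, beside 5132 and 7255 in CA2/CA3 neurons, the class with the most.

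Free RNA in droplets can add to such levels. Cluster 11, which stayed unnamed and was led by AY036118, Gm42418 and the mitochondrially encoded mt-Nd6, had a median of only 660 UMIs in the library labelled MR1 knockout and 681.5 in the 5XFAD library. It still held 29.4 and 33.3 member UMIs per nucleus, or 3.97% and 4.68% of its UMIs. In the library labelled MR1 knockout, oligodendrocytes, oligodendrocyte precursors, microglia and dentate granule neurons had fewer member UMIs per nucleus than that, at 25.9, 26.1, 26.5 and 28.6. How much of the member RNA in any class is free RNA was not tested.

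**Figure D1:**
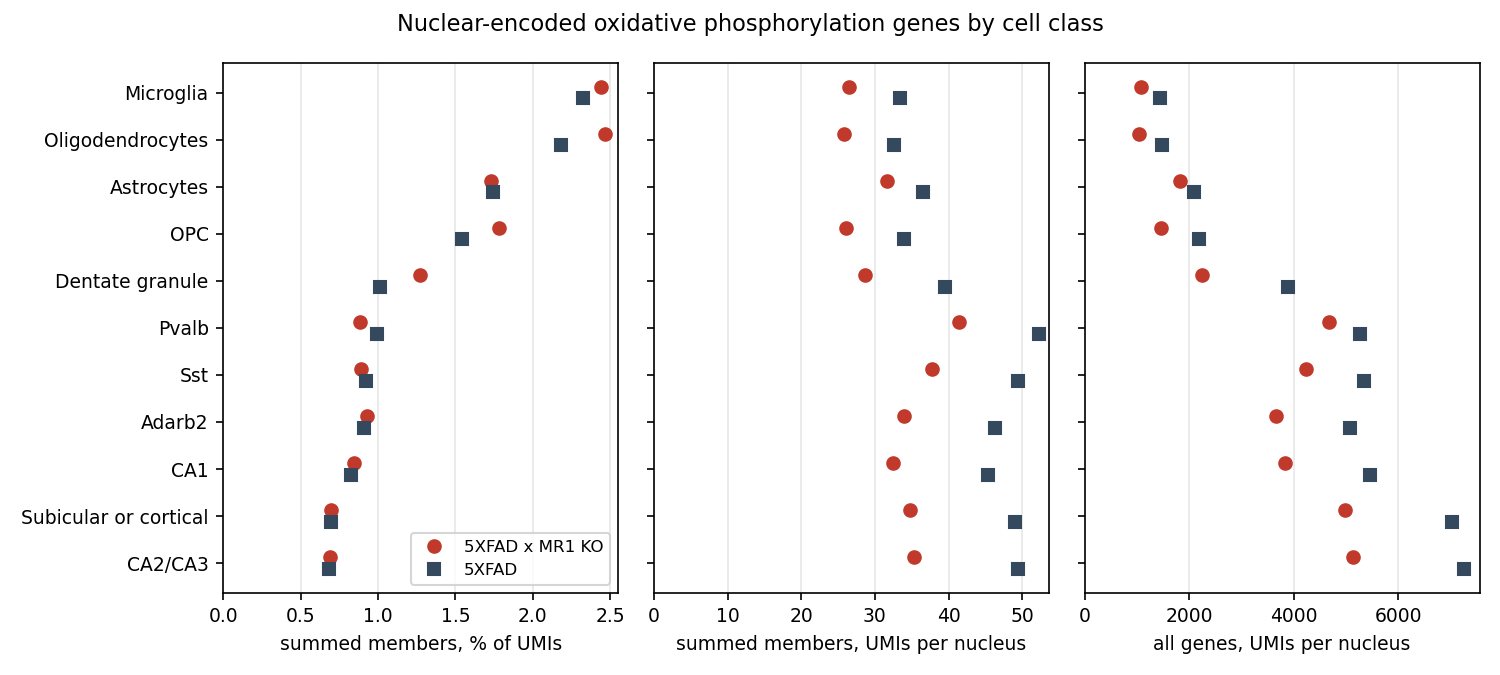
Summed members as a percent of UMIs (left), member UMIs per nucleus (middle) and UMIs of all genes per nucleus (right) in 11 classes, with circles for the 5XFAD x MR1 KO library and squares for the 5XFAD library. The share falls from microglia and oligodendrocytes to CA2/CA3 neurons, while member UMIs per nucleus stay between 25.9 and 52.3.

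Between the libraries the members as a group differed little once scaled to total UMIs. They made up 0.964% of the UMIs of kept nuclei in the library labelled MR1 knockout and 0.917% in the 5XFAD library, a CPM ratio of 1.05 (1.05 to 1.06). All ratios here and below are the library labelled MR1 knockout over 5XFAD. The median member stood at 0.10 on the log2 scale, beside 0.12 for the 16835 genes with at least 100 UMIs, so relative to all genes the members lay 0.02 lower. Under TMM scaling and under median-of-ratios scaling, which set the median of all genes close to 0, the summed ratio was 0.962 and 0.966, so its direction depends on the scaling. It depends on the filter too: with no limit on mitochondrial UMIs the ratio was 0.769, and without dentate granule neurons it was 0.997. Per nucleus, with no scaling, 31.6 member UMIs were counted in the library labelled MR1 knockout and 42.9 in the 5XFAD library, a ratio of 0.736, while the UMIs of all genes per nucleus stood at a ratio of 0.700.

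Of the 79 members, 78 had at least 100 UMIs in kept nuclei, and 61 of these were higher and 17 lower in the library labelled MR1 knockout, where 71.3% of all genes were higher. A change of at least 1.5-fold was called. Cox6b2 alone passed it upward (1.28% of the 78), where 7.00% of all genes did, and Cox7a1 alone downward, where 2.57% did. Both are sparse isoforms, described below. Every other member with enough UMIs stayed inside that fold.

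The 3 genes of the ATP synthase c-ring were among the members that were higher. Atp5g1, Atp5g2 and Atp5g3 encode the same mature c subunit, whose ring turns as protons pass, and differ in their import sequences. They lie on chromosomes 11 (96068852 to 96075670), 15 (102662864 to 102672352) and 2 (73908447 to 73911326) of GRCm38, all on the minus strand. Atp5g1 was at 204 CPM in the library labelled MR1 knockout and 157 CPM in the 5XFAD library, a ratio of 1.30 (1.27 to 1.34). Atp5g2 had 95.4 and 78.9 CPM, a ratio of 1.21 (1.16 to 1.26), and Atp5g3 had 127 and 108 CPM, a ratio of 1.17 (1.13 to 1.21). Atp5g1 and Atp5g2 were higher in all 11 compared classes and in the pooled nuclei of each sex, although with no mitochondrial limit they stood at 1.01 and 0.883. In single classes their ratios ranged from 1.05 (0.888 to 1.252) in Sst interneurons to 1.56 (1.45 to 1.68) in dentate granule neurons for Atp5g1, and from 1.05 (0.926 to 1.18) in CA2/CA3 neurons to 1.73 (1.26 to 2.40) in oligodendrocyte precursors for Atp5g2. Atp5g3 was higher in 9 classes, lower in Adarb2 interneurons at 0.993, and lower in subicular or cortical neurons at 0.895 (0.731 to 1.09).

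Other members of the synthase also lay above 1. Atp5d, the delta subunit of the catalytic F1 head, had 103 CPM in the library labelled MR1 knockout and 80.0 CPM in the 5XFAD library, a ratio of 1.28 (1.24 to 1.34), and was higher in 10 of 11 classes. The stalk subunits Atp5o, Atp5f1, Atp5j and Atp5h stood at 1.20, 1.18, 1.18 and 1.16. The catalytic subunits themselves, Atp5a1 and Atp5b, were nearer to 1, at 1.08 and 1.03. The 3 synthase members below 1 encode small proteins of the membrane part: Atp5md at 0.892 (0.870 to 0.916), Atp5k at 0.908 (0.881 to 0.936) and Atp5mpl at 0.979 (0.944 to 1.02). In all, 14 of the 17 synthase genes were higher, where 71.3% of all genes were. The synthase sum stood at 1.09 (1.08 to 1.10), and the median of all genes at 0.12 on the log2 scale.

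Complex IV, cytochrome c oxidase, as spelled here and under the 5% limit, stood apart from complex V in the other direction. Its members summed to 0.221% of UMIs in the library labelled MR1 knockout and 0.226% in the 5XFAD library, a ratio of 0.978 (0.970 to 0.986). Of its 13 members with enough UMIs 6 were higher, where 71.3% of all genes were. The sum lay below 1 in 8 of 11 classes and was the lowest of the 5 complexes in 8 classes. It reached 0.851 (0.814 to 0.890) in Pvalb interneurons, 0.918 (0.897 to 0.940) in CA2/CA3 neurons and 0.938 (0.919 to 0.957) in CA1 neurons. It rose above 1 in dentate granule neurons at 1.16, in oligodendrocytes at 1.06 and in oligodendrocyte precursors at 1.02. Under TMM scaling, which multiplies every ratio by the same factor, complex V stood at 0.999 and complex IV at 0.895, so the side of 1 on which complex V lies depends on the scaling. The complex IV sum holds neither Ndufa4, counted with complex I at a ratio of 1.08, nor Cox4i1. Its value at other mitochondrial limits is not given. The sum of all members stood at 1.23 under 1% mitochondrial UMIs, and the oxidase members Cox6a1 and Cox6c, described next, turned above 1 there.

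Cox6a1, the broadly expressed form of a nuclear-encoded oxidase subunit (chromosome 5, 115345642 to 115348981, minus strand), was the member lower in all 11 classes. It had 5655 UMIs (101 CPM) in the library labelled MR1 knockout and 6714 UMIs (119 CPM) in the 5XFAD library, a ratio of 0.844 (0.815 to 0.875), with 0.883 in female and 0.836 in male nuclei. In nuclei under 1% mitochondrial UMIs it stood at 1.03, and with no limit at 0.553. Its lowest class ratio was 0.727 (0.660 to 0.800) in CA1 neurons and its highest 0.950 (0.867 to 1.04) in dentate granule neurons. Cox6c, another small subunit, was lower in 10 of 11 classes, with 345 CPM in the library labelled MR1 knockout and 390 CPM in the 5XFAD library, a ratio of 0.884 (0.867 to 0.901), and it stood at 1.11 in nuclei under 1% mitochondrial UMIs. Cox5b, a subunit facing the matrix, was lower in 10 classes at 0.930 (0.902 to 0.958). Cox8a, the member of the complex with the most UMIs, was nearer to 1 at 466 and 479 CPM, a ratio of 0.973 (0.956 to 0.989). Cox5a went the other way, at 1.20 (1.17 to 1.23), and was higher in 10 of 11 classes.

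**Figure D2:**
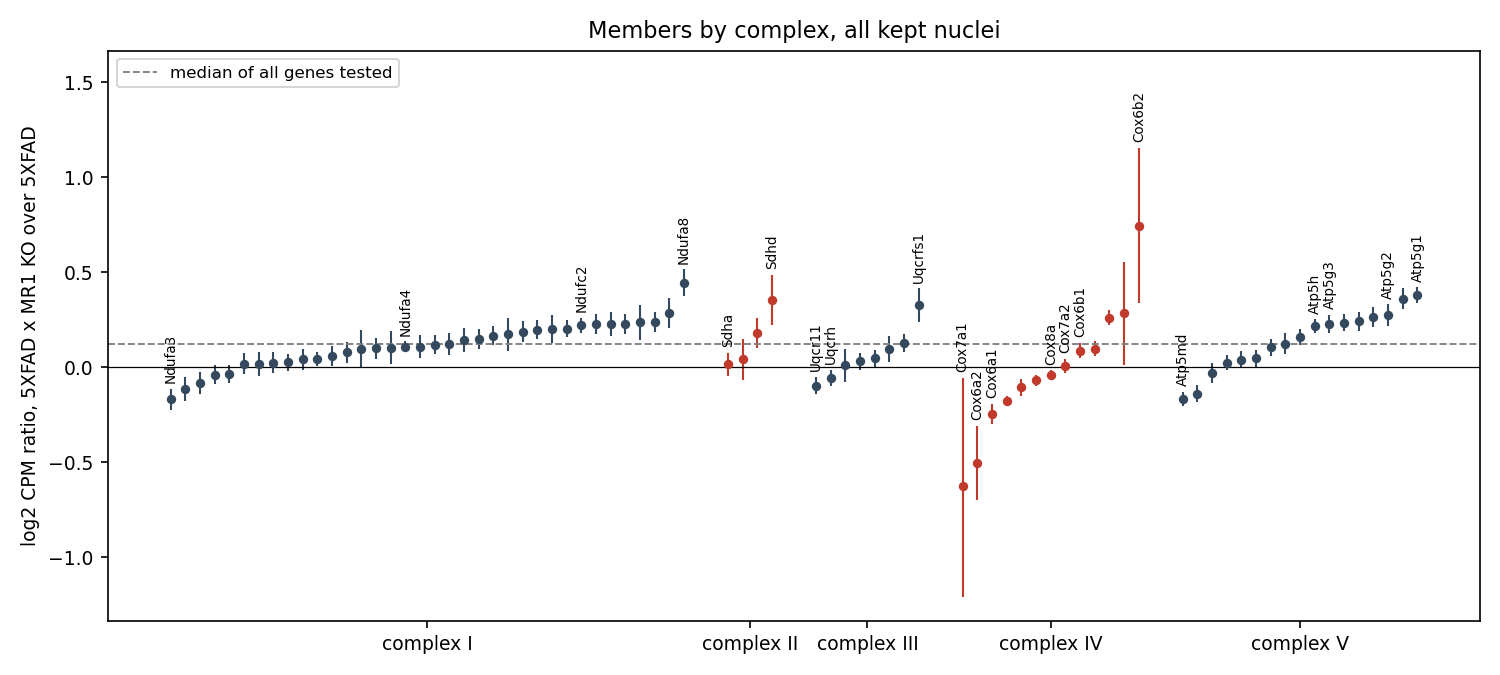
Each point is 1 of the 78 members with at least 100 UMIs in kept nuclei, ordered within its complex, at its log2 CPM ratio of 5XFAD x MR1 KO over 5XFAD with a 95% counting interval; colours alternate by complex and the dashed line is the median of all genes tested, 0.12. Most complex I and V members lie between 0 and 0.4, and complex IV runs from Cox7a1 to Cox6b2 on both sides of 0.

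Complex I, the NADH dehydrogenase, summed to 0.384% of UMIs in the library labelled MR1 knockout and 0.356% in the 5XFAD library, a ratio of 1.08 (1.07 to 1.09). Of its 36 members 31 were higher, where 71.3% of all genes were. Under TMM and median-of-ratios scaling the complex I sum stood at 0.986 and 0.991, so its side of 1 also depends on the scaling. Ndufa8, an accessory subunit, had the highest ratio at 1.36 (1.30 to 1.43), with 70.5 CPM in the library labelled MR1 knockout and 51.7 CPM in the 5XFAD library. Ndufc2, a subunit of the membrane arm, was higher in all 11 classes, at 197 and 169 CPM, a ratio of 1.17 (1.14 to 1.20), against 0.965 with no mitochondrial limit. Ndufa4, with the most UMIs of these spellings, stood at 382 and 354 CPM, a ratio of 1.08 (1.06 to 1.10). The lowest was Ndufa3, an accessory subunit, at 86.4 and 97.0 CPM, a ratio of 0.890 (0.857 to 0.926). Ndufs1, the large iron-sulfur subunit of the electron input module, was at 0.924 (0.883 to 0.966). In astrocytes Ndufs1 had only 34 UMIs in the library labelled MR1 knockout and 68 in the 5XFAD library, a ratio of 0.577 (0.371 to 0.883), and it was the 1 member at least 1.5-fold lower there, where 5.22% of all genes were.

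Complex II, succinate dehydrogenase, which also serves the tricarboxylic acid cycle, was the least abundant, at 0.0177% of UMIs in the library labelled MR1 knockout and 0.0165% in the 5XFAD library. Sdhd, a membrane anchor, had 1084 and 849 UMIs, a ratio of 1.28 (1.17 to 1.40). In CA2/CA3 neurons Sdhd had 163 UMIs (18.9 CPM) in the library labelled MR1 knockout and 84 UMIs (9.87 CPM) in the 5XFAD library, a ratio of 1.91 (1.46 to 2.52), and it was the 1 member at least 1.5-fold higher in this class, where 2.95% of all genes were. It was higher in female nuclei at 2.0 and in male nuclei at 2.88. Sdha, the flavoprotein, was at 83.5 and 82.6 CPM, a ratio of 1.01 (0.971 to 1.05). In complex III, cytochrome bc1, the Rieske iron-sulfur protein Uqcrfs1 had the highest ratio, 1.255 (1.18 to 1.33), with 41.8 CPM in the library labelled MR1 knockout and 33.3 CPM in the 5XFAD library. Uqcr11 and Uqcrh, small subunits, stood at 0.936 (0.907 to 0.965) and 0.962 (0.934 to 0.991).

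Members with the shortest mRNAs had the lowest ratios. Over the median length of a gene's protein-coding transcripts in GENCODE M21, 6 of the 14 members under 500 bases were higher, and their median lay at -0.04 on the log2 scale. Of the 46 members of 500 to 1000 bases 37 were higher, with a median of 0.14, and all 13 members of 1000 to 1500 bases were higher, with a median of 0.10. The 3 members of 1500 to 2500 bases had a median of 0.04 and the 2 longer ones 0.24, so the medians did not rise step by step with length. Among other protein-coding genes under 500 bases the median was 0.14, and 68.3% were higher. Of other genes of 500 to 1000 bases 80.8% were higher, with a median of 0.18. At 1000 to 1500 bases 80.1% were higher, also with a median of 0.18. In each of these length ranges the member median was below that of other genes. Across the 78 members Spearman's rho between length and log2 ratio was 0.30, and it was 0.49 over 70 members in Sst interneurons, 0.47 over 72 in Pvalb interneurons and -0.09 over 63 in astrocytes. These points share both libraries and their totals. The part of fragment length in the library ratios was not tested.

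Promoters are shown for Atp5g1, Atp5g2, Ndufc2, Sdhd and Cox6a1, which kept 1 direction in every class where they had at least 100 UMIs and in the pooled nuclei of each sex, and for Atp5g3 as the remaining c-ring gene, so that their motifs can be read side by side. Sdhd had that many UMIs in only 3 classes, and Atp5g1, Atp5g2, Ndufc2 and Cox6a1 in 11. Cox6a2 also met the rule, in 2 classes, but no promoter window matched it. The share of all genes that keep 1 direction is not given. Windows from 250 bases before to 50 bases after each start (RefSeq, GRCm38.p6) were matched by symbol for 66 of the 79 members, giving 71 windows. On both strands, the core of the nuclear respiratory factor NRF1, spelled GCGCNTGCGC, was found in 18 of the 71 windows (25.4%), beside 4.60% of all 32851 windows of the same length. An ETS core, CGGAAGT, which GABPA (NRF2) can bind, was found in 14.1% and 6.42%, the ERRA core AAGGTCA in 11.3% and 4.72%, the YY1 core ATGGCGG in 15.5% and 4.05%, and the GC box GGGCGG in 38.0% and 35.7%. The 250 bases before the start are printed 5' to 3' on the gene's strand, with any of these motifs in capitals, in either orientation.
Atp5g1: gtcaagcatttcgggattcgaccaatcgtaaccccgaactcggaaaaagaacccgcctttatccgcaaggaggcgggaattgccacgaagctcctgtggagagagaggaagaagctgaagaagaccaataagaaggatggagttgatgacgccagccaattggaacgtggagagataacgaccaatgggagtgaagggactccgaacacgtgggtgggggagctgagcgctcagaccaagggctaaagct
Atp5g2: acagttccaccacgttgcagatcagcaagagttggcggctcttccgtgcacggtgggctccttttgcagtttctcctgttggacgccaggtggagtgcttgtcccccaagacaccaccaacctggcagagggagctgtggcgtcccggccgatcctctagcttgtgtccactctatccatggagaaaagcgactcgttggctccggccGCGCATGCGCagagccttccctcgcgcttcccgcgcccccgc
Atp5g3: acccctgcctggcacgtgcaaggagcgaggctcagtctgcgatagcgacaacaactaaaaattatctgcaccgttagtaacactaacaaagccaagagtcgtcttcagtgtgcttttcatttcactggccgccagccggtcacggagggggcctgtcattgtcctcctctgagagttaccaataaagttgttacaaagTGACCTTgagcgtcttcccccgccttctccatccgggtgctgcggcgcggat
Ndufc2: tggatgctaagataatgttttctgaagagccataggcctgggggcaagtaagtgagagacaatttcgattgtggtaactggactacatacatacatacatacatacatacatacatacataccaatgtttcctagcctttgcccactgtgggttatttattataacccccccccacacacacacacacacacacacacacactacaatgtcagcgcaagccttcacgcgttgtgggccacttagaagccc
Sdhd: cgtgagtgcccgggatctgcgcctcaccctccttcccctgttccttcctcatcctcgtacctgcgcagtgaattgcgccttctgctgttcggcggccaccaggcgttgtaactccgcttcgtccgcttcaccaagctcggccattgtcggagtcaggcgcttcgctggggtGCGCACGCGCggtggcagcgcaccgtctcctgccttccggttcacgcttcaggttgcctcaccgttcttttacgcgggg
Cox6a1: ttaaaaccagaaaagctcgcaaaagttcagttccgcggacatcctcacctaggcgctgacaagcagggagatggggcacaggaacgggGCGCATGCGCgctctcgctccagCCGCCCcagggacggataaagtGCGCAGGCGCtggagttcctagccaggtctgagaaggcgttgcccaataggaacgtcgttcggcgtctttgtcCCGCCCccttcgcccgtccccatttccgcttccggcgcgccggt
These bases lie at chr11:96075632-96075881 (Atp5g1), chr15:102671048-102671297 (Atp5g2), chr2:73911327-73911576 (Atp5g3), chr7:97399753-97400002 (Ndufc2), chr9:50603850-50604099 (Sdhd) and chr5:115348959-115349208 (Cox6a1). Only Ndufc2 is on the plus strand. The RefSeq starts of Sdhd and Atp5g2 did not match a GENCODE transcript start, so their strand rests on RefSeq alone. In the printed bases Atp5g2 held an NRF1 core, Atp5g3 an ERRA core, and Atp5g1 none of those searched. In the whole windows, which add the 50 bases after the start, Atp5g2 and Atp5g3 both held an NRF1 core and Atp5g1 again held none. Cox6a1, which was lower in every class, held 2 NRF1 cores and 2 GC boxes in the printed bases, and Sdhd held 1 NRF1 core, so both directions occurred among genes with that motif. A match is a description of the letters, and no binding was measured.

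Dentate granule neurons, which receive the main cortical input to the hippocampus, showed the largest class ratio. Members made up 1.27% of UMIs in the library labelled MR1 knockout and 1.01% in the 5XFAD library, a ratio of 1.26 (1.24 to 1.27). Of 75 members with enough UMIs 73 were higher, where 66.7% of all genes were, and 6 were at least 1.5-fold higher, or 8.00%, where 11.0% of all genes were. Those 6 were Atp5g1, Ndufb6, Uqcrfs1, Ndufs8, Ndufa8 and Atp5d. The class was made of 2 clusters that the libraries filled unequally. Cluster 0 held 3036 nuclei in the library labelled MR1 knockout and 247 in the 5XFAD library, and cluster 2 held 1079 and 1230. Within cluster 0 the summed ratio was 0.850 (0.832 to 0.870) and 14 of 74 members were higher, where 59.5% of all genes were. Within cluster 2 it was 1.07 (1.06 to 1.09) and 58 of 74 were higher, where 62.6% of all genes were. The class ratio is therefore not the ratio inside either cluster. Cluster 0 had a higher member share than cluster 2 in both libraries, 1.40% against 1.02% in the library labelled MR1 knockout and 1.65% against 0.951% in the 5XFAD library. Cox6a1 was below 1 in both clusters, at 0.808 and 0.796, and Atp5g1 above it in both, at 1.04 (0.876 to 1.24) and 1.30 (1.17 to 1.44).

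Glial classes of the oligodendrocyte lineage also had ratios above 1. Oligodendrocytes, the myelinating cells, stood at 1.13 (1.11 to 1.15), and 59 of their 72 members were higher, where 57.4% of all genes were. Oligodendrocyte precursors stood at 1.15 (1.12 to 1.19), with 54 of 64 higher where 53.4% of all genes were, and 8 members were at least 1.5-fold higher, or 12.5%, where 5.49% of all genes were. In the precursors these were Ndufv3, Atp5d, Atp5g2, Atp5g3, Ndufc1, Atp5o, Ndufa12 and Ndufs3. Atp5d had 125 UMIs (191 CPM) there in the library labelled MR1 knockout and 54 UMIs (106 CPM) in the 5XFAD library, a ratio of 1.81 (1.30 to 2.53). In oligodendrocytes Atp5d had 284 UMIs (293 CPM) and 220 UMIs (183 CPM), a ratio of 1.60 (1.34 to 1.91), and was the 1 member past 1.5-fold, where 5.05% of all genes were. Microglia, the resident immune cells, stood at 1.05 (1.02 to 1.08), with 1.00 (0.966 to 1.05) in female and 0.965 (0.880 to 1.06) in male nuclei, and the 1 member past 1.5-fold was Ndufa7, with 229 and 62 UMIs, a ratio of 1.56 (1.18 to 2.10), where 5.99% of all genes were. Astrocytes stood at 0.993 (0.963 to 1.02).

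Pvalb interneurons were the class with the lowest ratio. Their members made up 0.885% of UMIs in the library labelled MR1 knockout (366 nuclei) and 0.994% in the 5XFAD library (318 nuclei), a ratio of 0.891 (0.872 to 0.911), with 0.933 in female and 0.811 in male nuclei. Of 72 members 49 were lower and 23 higher, where 55.3% of all genes were higher. At least 1.5-fold lower were 5 of the 72, where 1.77% of all genes were: Cox7a2, Atp5mpl, Atp5k, Atp5e and Atp5md. Cox7a2, a small oxidase subunit, had 273 UMIs (160 CPM) in the library labelled MR1 knockout and 439 UMIs (262 CPM) in the 5XFAD library, a ratio of 0.609 (0.521 to 0.709). The other 4 are small ATP synthase subunits, at 0.611, 0.619, 0.648 and 0.662, and each was lower in female and in male nuclei. Going the other way, Ndufv1, the complex I subunit that binds NADH, had 81 and 46 UMIs, a ratio of 1.72 (1.19 to 2.53), and Ndufa9 stood at 1.53 (1.02 to 2.32), where 3.61% of all genes were that much higher. In nuclei under 1% mitochondrial UMIs the Pvalb ratio was 1.12, so its direction rests on the nuclei above that share. Sst interneurons stood at 0.965 (0.943 to 0.988), where Atp5md was at 0.664 (0.568 to 0.777), with 322 and 332 UMIs, the 1 member at least 1.5-fold lower, where 2.27% of all genes were. Under 1% mitochondrial UMIs the Sst ratio also turned, to 1.17 (1.12 to 1.22).

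Pyramidal neurons, the output cells of the hippocampus, were near 1. CA1 neurons stood at 1.02 (1.01 to 1.03), CA2/CA3 neurons at 1.01 (0.997 to 1.02) and subicular or cortical excitatory neurons at 1.00 (0.981 to 1.02). Their single clusters lay on both sides: 1.06 and 0.953 for clusters 1 and 6 of CA1, and 1.03 and 0.971 for clusters 3 and 10 of CA2/CA3. Female and male nuclei, each from 1 mouse per library, also split. They stood at 0.955 and 1.06 in CA2/CA3 neurons and at 0.921 and 1.12 in subicular or cortical neurons (53 male nuclei in the 5XFAD library). In CA1 neurons they stood at 1.00 (0.989 to 1.02) and 0.957 (0.940 to 0.974), with the male nuclei lower and both below the value of all CA1 nuclei, which include nuclei with no sex call. In these classes Atp5g1 and Cox6c still kept opposite sides. In subicular or cortical neurons Atp5g1 had 151 CPM in the library labelled MR1 knockout and 107 CPM in the 5XFAD library, a ratio of 1.41 (1.22 to 1.64), and Cox6c had 218 and 301 CPM, a ratio of 0.724 (0.647 to 0.809). Adarb2 interneurons stood at 1.02 (0.997 to 1.05). No member passed 1.5-fold either way in CA1 neurons, where 2.93% of all genes were that much higher and 1.06% lower, in Adarb2 interneurons (4.20% and 1.16%) or in subicular or cortical neurons (3.93% and 2.36%).

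**Figure D3:**
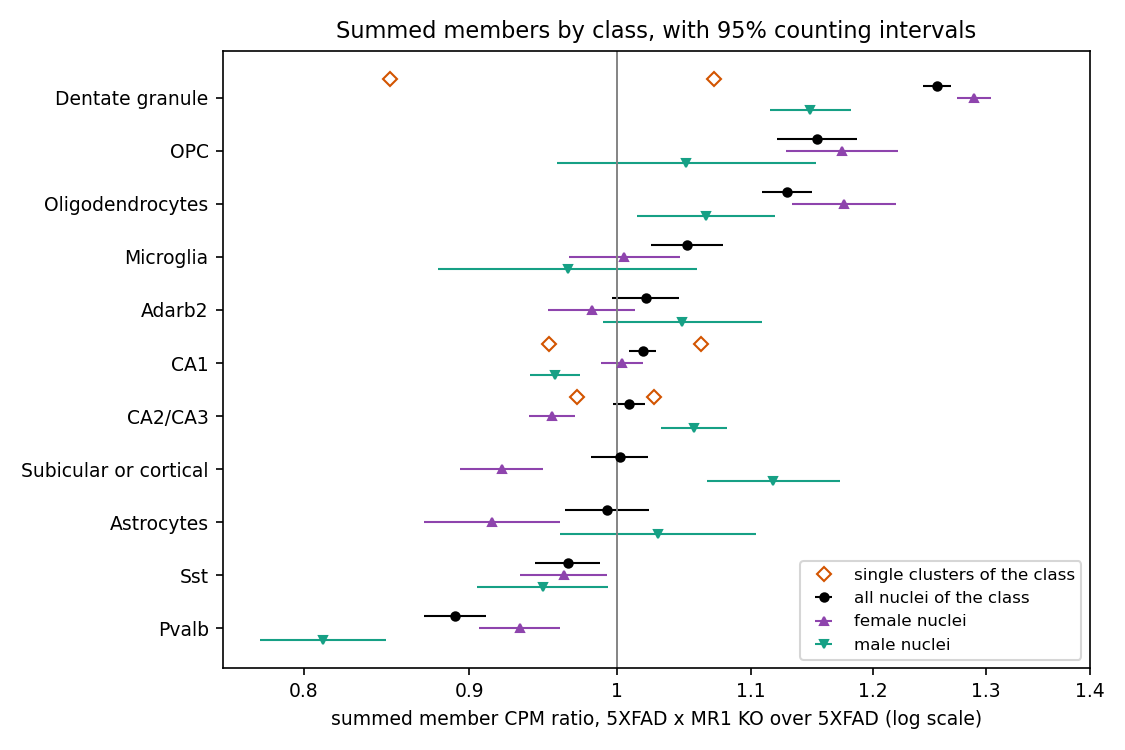
Summed member CPM ratio of 5XFAD x MR1 KO over 5XFAD in 11 classes (log axis), for all nuclei, female nuclei and male nuclei, with 95% counting intervals; diamonds are single clusters of 3 classes. Dentate granule neurons lie at 1.26 while their clusters lie at 0.850 and 1.07, and Pvalb interneurons lie at 0.891.

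**Figure D4:**
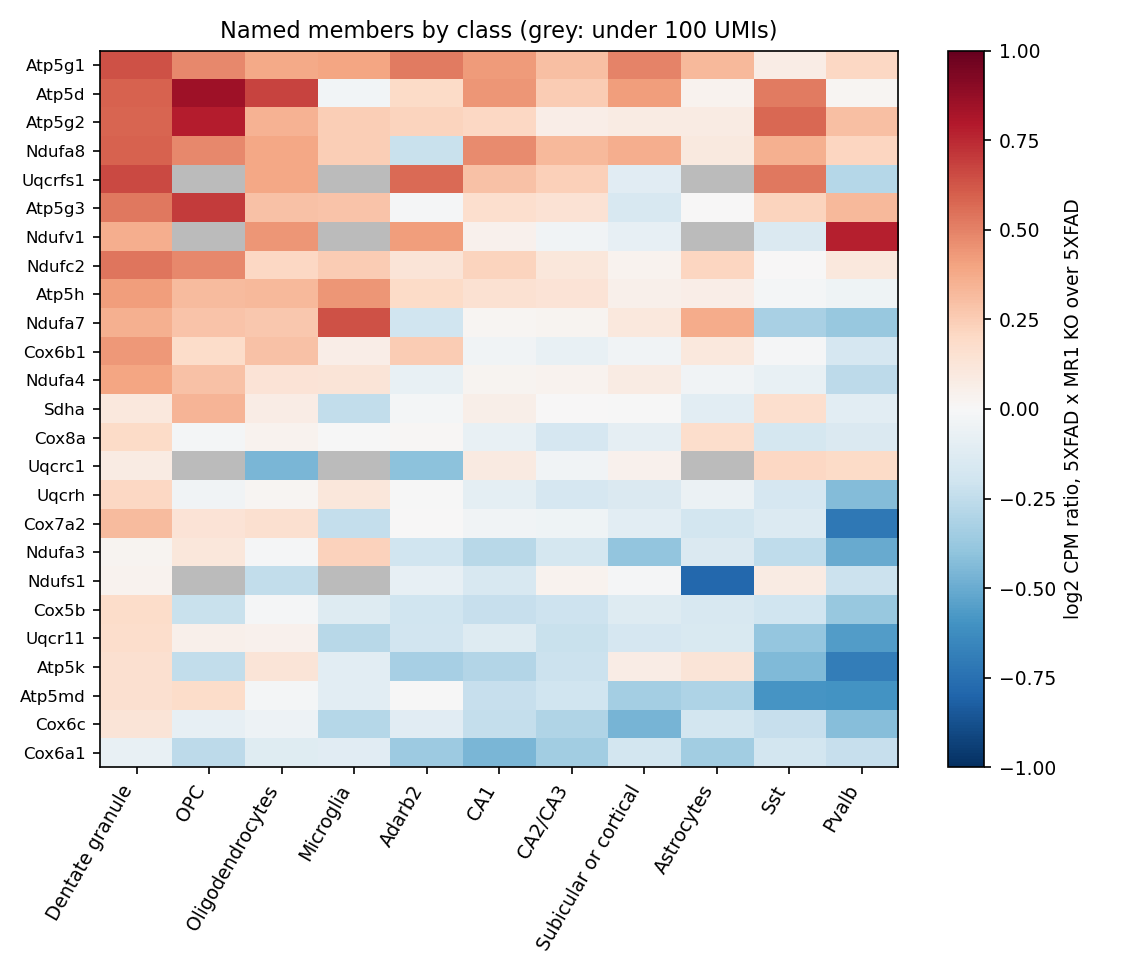
Log2 CPM ratio of 5XFAD x MR1 KO over 5XFAD for the 25 named members with at least 100 UMIs in 8 or more classes, by class; grey cells have under 100 UMIs. Atp5g1, Atp5g2 and Ndufc2 are above 0 in all 11 classes and Cox6a1 is below 0 in all 11.

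Some oxidase subunits have an extra gene used in muscle or testis, and these isoforms were sparse. Cox6a2, the heart and muscle form of Cox6a1 (chromosome 7, 128205435 to 128206387, minus strand), is known in mouse also from parvalbumin interneurons. It had 375 UMIs (6.68 CPM) in the library labelled MR1 knockout and 532 UMIs (9.46 CPM) in the 5XFAD library, a ratio of 0.706 (0.617 to 0.808), with 0.614 in female and 0.813 in male nuclei. In Pvalb interneurons 26 and 68 UMIs were counted, that is 71.0 per 1000 nuclei in the library labelled MR1 knockout and 214 per 1000 in the 5XFAD library, a ratio by CPM of 0.374 (0.229 to 0.596). These UMIs are fewer than the 100 asked of a compared gene, so Cox6a2 is not among the Pvalb counts above. Pvalb interneurons had the most Cox6a2 per nucleus of the 11 classes in both libraries: the other classes lay between 13.5 and 39.0 per 1000 nuclei in the library labelled MR1 knockout and between 30.2 and 62.0 in the 5XFAD library. Cluster 11 held 38.0 and 26.8 per 1000, so this RNA was also found in small barcodes, and the part of free RNA was not tested.

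Cox8b, a muscle isoform of Cox8a (chromosome 7, 140898945 to 140900446, minus strand), had 79 UMIs in the library labelled MR1 knockout and 13 in the 5XFAD library, a ratio of 6.09 (3.36 to 11.9). This was the only member with fewer than 100 UMIs in kept nuclei, and the difference was not tied to 1 class: cluster 2 held 8 UMIs in the library labelled MR1 knockout and 2 in the 5XFAD library, oligodendrocytes held 8 and 0, and clusters 0 and 4, which had few nuclei in the 5XFAD library, held 11 and 0 and 8 and 0. Cox7a1, the muscle form of Cox7a2, had 44 and 68 UMIs, a ratio of 0.648 (0.433 to 0.961). It was above 1 in male nuclei at 1.16 and in nuclei under 1% mitochondrial UMIs at 1.15. Cox6b2, a testis form of Cox6b1, had 137 and 82 UMIs, a ratio of 1.67 (1.26 to 2.23), which turned to 0.870 with no mitochondrial limit. Cox7b2 had 254 and 209 UMIs, a ratio of 1.22 (1.01 to 1.47). Their common forms Cox6b1 and Cox7a2 stood at 1.06 (1.03 to 1.09) and 1.01 (0.979 to 1.03). Reads that these genes share with near copies cannot be told apart here.

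Mitochondrially encoded subunits, the partners of the members, were lower in the library labelled MR1 knockout: 13 of 13 in kept nuclei, and 5 of them by at least 1.5-fold, where 2.57% of all genes were. They summed to 1.19% of UMIs in the library labelled MR1 knockout and 1.65% in the 5XFAD library, a ratio of 0.720 (0.717 to 0.722), where the nuclear members stood at 1.05. The limit of 5% mitochondrial UMIs acts on these genes directly, so their level among kept nuclei is partly set by it. The share of member RNA rose with the mitochondrial share of a barcode in both libraries. From barcodes under 0.5% through 0.5 to 1%, 1 to 2%, 2 to 5% and above 5%, members made up 0.631%, 0.869%, 1.12%, 1.44% and 1.99% of UMIs in the library labelled MR1 knockout. In the 5XFAD library the same steps gave 0.465%, 0.678%, 0.905%, 1.33% and 2.40%. Between barcodes above 5% and barcodes under 1%, 77 of 78 members rose in CPM in each library, with a median log2 difference of 1.39 and 1.92, while 51.5% and 47.6% of all genes did.

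Compared within steps of mitochondrial share over all barcodes, the members were higher in the library labelled MR1 knockout in every step below 5% and lower above it. Single classes did not all follow this. Values of all genes are not given for these steps, so whether the ratios are particular to the members was not tested. Over all kept nuclei the median member lay at 0.10 on the log2 scale and the median gene at 0.12. The summed ratios were 1.36 (1.34 to 1.37), 1.28 (1.27 to 1.29), 1.24 (1.23 to 1.24) and 1.08 (1.07 to 1.09) up to 5%, and 0.828 (0.822 to 0.833) above it. In CA1 neurons they were 1.32, 1.24, 1.07, 1.00 and 0.913, in CA2/CA3 neurons 1.30, 1.23, 1.13, 1.06 and 1.00, and in dentate granule neurons 1.63, 1.48, 1.31, 1.29 and 1.10. In Pvalb interneurons they were 1.24, 1.12, 0.903, 0.826 and 1.04. Kept nuclei of the library labelled MR1 knockout had the lower mitochondrial share in each compared class, with medians from 0.572% to 2.55% against 1.12% to 3.45% in the 5XFAD library. The part of this difference in the class ratios was not tested beyond these steps, which were added after the values had been seen.

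**Figure D5:**
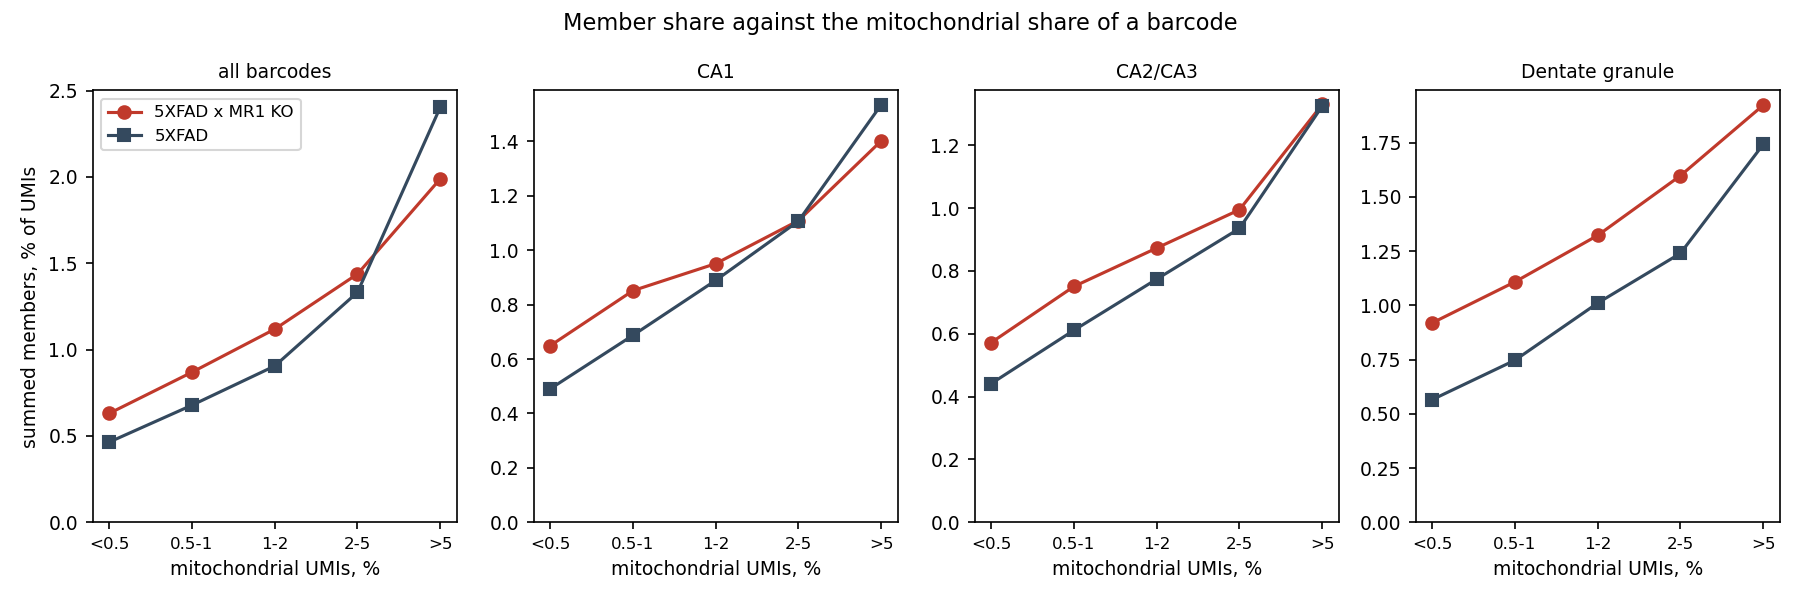
Summed members as a percent of UMIs (each vertical axis starts at 0) against the mitochondrial share of the barcode in 5 steps, for all barcodes and 3 neuron classes, with circles for the 5XFAD x MR1 KO library and squares for the 5XFAD library. The share rises in every panel, and over all barcodes the libraries cross between 2 to 5% and above 5%.

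Other genes of the pathway, in lists made by function, lay on either side. The genes named from each list are mostly those with the most extreme ratios. Of all genes 71.3% were higher, 7.00% at least 1.5-fold higher and 2.57% at least 1.5-fold lower, and the counts below are to be read beside these shares. Structural subunits outside the spellings summed to a ratio of 1.12 (1.11 to 1.13): 5 of 5 with enough UMIs were higher, from Cox4i1 at 1.00 (0.987 to 1.02) to Ndufab1, the acyl carrier subunit of complex I, at 1.45 (1.39 to 1.504). Ndufa4l2 stayed under the floor with 44 UMIs in the library labelled MR1 knockout and 31 in the 5XFAD library, of which the small cluster 31 held 14 and 4. Of 44 assembly factors 31 were higher, with a sum at 1.04 (1.03 to 1.05), led by Coa3, a factor for complex IV, at 1.41 (1.34 to 1.49). Of 18 genes of the tricarboxylic acid cycle 12 were higher, with a sum at 1.05 (1.04 to 1.06), among them the malate dehydrogenase Mdh2 at 1.30 (1.24 to 1.36). Electron carriers and the NADH shuttle summed to 1.12 (1.11 to 1.14), with 12 of 14 higher, and Slc25a13, an aspartate-glutamate carrier, was the 1 past 1.5-fold, at 0.651 (0.576 to 0.735). Glycolytic enzymes summed to 1.23 (1.21 to 1.24), with 13 of 16 higher, led by Tpi1 at 1.48 (1.42 to 1.54).

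Carriers of ATP and metabolites summed to 1.12 (1.10 to 1.14), with 6 of 8 higher, including the porins Vdac2 and Vdac3, both at 1.30, and the uncoupling protein Ucp2, the 1 past 1.5-fold, at 1.75 (1.33 to 2.31) from 150 and 86 UMIs. Regulators of mitochondrial biogenesis summed to 0.938 (0.924 to 0.953), although 10 of 16 were higher. The nuclear receptor Esrrg at 0.760 (0.738 to 0.783) and the coactivator Ppargc1b at 0.806 (0.760 to 0.855) were lower, Ppargc1a and Nrf1 stood at 0.974 (0.938 to 1.01) and 1.02 (0.973 to 1.06), and Polrmt, the mitochondrial RNA polymerase, at 1.31 (1.15 to 1.49). Cytosolic ribosomal proteins, also short and abundant RNAs, summed to 1.02 (1.02 to 1.03), with 59 of 76 higher, and their lowest were Rps29 at 0.692 (0.679 to 0.705), Rps21 at 0.763 and Rpl41 at 0.770. Nuclear long noncoding RNAs summed to 0.950 (0.949 to 0.951), with 5 of 7 higher.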

How the data were processed

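The deposited values were UMI counts per gene and barcode, raw and not normalised, from 10x 3' libraries; the submitters' processing notes name Cell Ranger 7.0.0, Seurat and mm10, with no settings. The sources used here do not state the annotation or whether intronic reads were counted. Each of the 2 libraries pooled 2 mice, so nothing was tested between groups and no p-value is given.

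Barcodes with at least 500 genes and under 5% mitochondrial UMIs were kept. Scrublet in scanpy 1.11.5 scored these barcodes. The highest scores were removed as doublets, up to a share set beforehand at 0.8% per 1000 barcodes of the library. That took out 4668 barcodes (21.0%) in the library labelled MR1 knockout and 3111 (20.2%) in the 5XFAD library. The remaining nuclei were clustered by Leiden (leidenalg 0.10.2) on 2500 variable genes and 40 principal components. Clusters were named from marker lists, so class names are rebuilt. Clusters in which many barcodes held transcripts of both sexes were removed whole, with 467 and 281 barcodes. Sex was called from sex-linked genes.

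UMIs were summed per library and class. CPM ratios have exact conditional binomial intervals, and shares have exact intervals, all for counting error only. A gene was compared from 100 UMIs over both libraries, and a change of 1.5-fold was called. The ratio and interval code was tested on simulated data. Scalings used edgeR 4.0.16 (TMM) and a median of ratios.

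Members and gene lists were chosen with earlier results of these data known. Named by rule were, per complex, the member with the most UMIs and those with the highest and lowest ratio; up to 6 members with 1 direction throughout; the extreme members of each class; the alternative isoforms; and up to 3 genes per list. Other named genes were chosen after their values were seen. Alternatives tried are the mitochondrial, gene and UMI limits, doublets, thinning to 1000 UMIs, each sex, scalings and folds; the steps of mitochondrial share and the cluster exclusions were added after seeing the data.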

Additional observations from a re-analysis of the deposited data

Results flagged for a closer look

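Some summed member ratios (library labelled MR1 knockout over 5XFAD) lay on opposite sides of 1 in female and in male nuclei. Each sex is 1 mouse per library, so each ratio sets 1 mouse beside another, and these differences were not tested. In CA2/CA3 pyramidal neurons the ratio was 0.955 in female nuclei and 1.06 in male nuclei. In subicular or cortical excitatory neurons it was 0.921 in female nuclei (150 in the library labelled MR1 knockout and 508 in the 5XFAD library). There it was 1.12 in male nuclei (134 and 53).

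Between classes, the counting interval of the summed ratio lay wholly above 1 in dentate granule neurons (1.26), oligodendrocyte precursors (1.15), oligodendrocytes (1.13), microglia (1.05) and CA1 pyramidal neurons (1.02), and wholly below 1 in Sst interneurons (0.965) and Pvalb interneurons (0.891). In nuclei with a sex call, microglia stood at 1.00 in female and 0.965 in male nuclei and CA1 neurons at 1.00 and 0.957, so neither kept its side in both. Under 1% mitochondrial UMIs the Sst ratio was 1.17 and the Pvalb ratio 1.12. With 1 library per group these differences between classes were not tested either, and the intervals hold counting error only.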

How the results depend on the processing

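The summed member ratio of 1.05 was 1.23 under 1% and 1.17 under 2% mitochondrial UMIs, 0.769 with no limit, 1.00 from 1000 genes, 1.06 with called doublets, 1.01 after thinning, 1.04 in female and 1.04 in male nuclei, 0.962 by TMM, 0.966 by median of ratios, 1.04 without mitochondrially encoded genes and Malat1 in the denominator and 0.736 per nucleus. Among alternatives added after seeing the data it was 1.36, 1.28, 1.24 and 1.08 in rising steps of mitochondrial share, 1.07 without cluster 11, 0.997 without dentate granule neurons and 1.05 without clusters 0, 4 and 8. The mean log2 ratio over classes, 0.0565, was in the same order 0.288 (4 classes), 0.197 (8), -0.135, -0.0101 (9), 0.0664, -0.0238 after thinning, 0.0475 in female nuclei (10), 0.0712 in male nuclei (3), -0.0127, -0.0193, 0.0345 and -0.396, then 0.0293 without dentate granule neurons and -0.0160 over numbered clusters.

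The count of members at least 1.5-fold higher, 1, was 3 under 1% mitochondrial UMIs, 2 with doublets, 2 with no UMI floor, 6 past a ratio of 5 to 4, and 0 after thinning, in male nuclei, per nucleus and at 2-fold. The count lower, 1, was 13 with no mitochondrial limit, 11 per nucleus, 2 by TMM, by median of ratios, with no UMI floor and past 4 to 5, and 0 under 1%, under 2%, from 1000 genes, with doublets, in male nuclei, from 500 UMIs and at 2-fold. Shares of all genes past the fold are not given for these alternatives, so the counts cannot be read as particular to the members. Per nucleus the median of all genes was itself -0.39 on the log2 scale, beside -0.41 for the members. Cox7a1 turned to 1.15 under 1% mitochondrial UMIs and 1.16 in male nuclei, and Cox6b2 to 0.870 with no limit. The cause was not tested. Of 30 named members, 5 stayed on 1 side of 1 in all alternatives scaled to total UMIs that gave a value: Atp5g1, Cox6a2, Cox8b, Ndufs1 and Sdhd. No paired analysis was possible because each group has 1 library. Counting depth limits single members in the smaller classes.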
